A study of Mus musculus with 45 samples.

Results

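Gene expression was compared between sections 4, 5 and 6 and sections 9, 10 and 11 of an E5.5 mouse embryo, the stage shortly after implantation. The groups were chosen by section number alone and held 10 of the 45 samples of the series, in 6 of its 36 columns of expression values. The series covers untreated embryos of 3 stages (E5.25, then E5.5, then E5.75), which were taken out of the decidua, frozen and sectioned. Tissue was captured by laser microdissection, and RNA was sequenced with Smart-seq2, which reads whole transcripts from minute inputs. The labels name 1 embryo per stage, so the replicates here are neighbouring sections. The p-values therefore compare sections of 1 embryo, and read as a comparison of embryos they would be too small. It is not stated at which end section 1 lies, and directions are given in section number.

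Each of columns 4, 5, 6 and 9 holds 1 value per gene for parts A and B of a section, which the labels list as separate samples. Columns 10 and 11 hold 1 sample each, and their labels conflict: the titles give parts A and B of section 10, while the source name of the second gives section 11. Sections 7 and 8 lie between the groups and are given as intermediate values, and columns 1 and 2, with few detected genes, were left out of the tests. Values are log2(FPKM + 1), where FPKM is fragments per kilobase of transcript scaled to the mapped fragments of a library, and every difference is the mean of columns 9 to 11 minus the mean of the lower-numbered columns on that scale.

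At this stage the embryo is a small cup. The epiblast, the pluripotent tissue from which the body forms, is joined to the extraembryonic ectoderm, which holds trophoblast stem cells, and beyond it to the ectoplacental cone, which contributes to the placenta. Visceral endoderm wraps the epiblast and extraembryonic ectoderm as an outer layer. Pou5f1 (Oct4) is a defining transcription factor of pluripotent cells, whereas Phlda2, an imprinted gene that restrains placental growth, and the keratin Krt7 are trophoblast genes. In bulk tissue, fewer cells of a type and less RNA per cell cannot be told apart.

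The sequences of the promoters of these 3 genes, from RefSeq on mm10, are shown because the genes stood at opposite ends of the comparison. Each runs from 250 bases before to 50 bases after 1 annotated start, 5′ to 3′ on the gene's strand, and capitals mark matches to GCCNNNGGC, the letters of a TFAP2-type site. The window of Pou5f1 is chr17:35505782-35506081 (plus strand), that of Phlda2 is chr7:143502475-143502774 (minus strand), and that of Krt7 is chr15:101412153-101412452 (plus strand).
Pou5f1: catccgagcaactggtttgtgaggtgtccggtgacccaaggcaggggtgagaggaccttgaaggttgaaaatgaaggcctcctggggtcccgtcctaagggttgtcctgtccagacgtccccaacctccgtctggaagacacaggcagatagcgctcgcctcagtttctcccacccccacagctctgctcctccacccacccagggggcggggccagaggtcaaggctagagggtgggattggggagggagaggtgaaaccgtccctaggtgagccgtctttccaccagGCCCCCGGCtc
Phlda2: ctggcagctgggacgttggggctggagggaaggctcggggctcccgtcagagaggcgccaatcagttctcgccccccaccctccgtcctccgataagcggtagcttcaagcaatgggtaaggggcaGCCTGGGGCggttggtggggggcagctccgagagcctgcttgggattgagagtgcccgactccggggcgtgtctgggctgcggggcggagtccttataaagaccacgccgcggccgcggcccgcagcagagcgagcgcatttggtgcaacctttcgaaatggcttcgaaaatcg
Krt7: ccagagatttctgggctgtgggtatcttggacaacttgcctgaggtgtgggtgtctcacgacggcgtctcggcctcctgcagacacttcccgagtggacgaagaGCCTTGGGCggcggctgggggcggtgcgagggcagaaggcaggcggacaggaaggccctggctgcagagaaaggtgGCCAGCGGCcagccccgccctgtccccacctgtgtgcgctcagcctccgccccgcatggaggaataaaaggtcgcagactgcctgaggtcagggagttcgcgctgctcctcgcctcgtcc
The match occurred on both sides of the comparison. It was found in 28.6% of the 5048 tested genes with a promoter sequence, in 27.8% of the 801 called higher in columns 9 to 11 without section 6, and in 26.1% of the 69 called lower. The octamer ATGCAAAT was found in 1.43%, 1.5% and 1.45% of the same sets, and AGATAA, the letters of a GATA-type site, in 7.31%, 5.99% and 8.7%. Another annotated start of Pou5f1, with the window chr17:35508557-35508856, held none of the 3 motifs and is not shown. Both strands were searched, and a match describes letters in the window and not binding.

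No gene passed the test between sections 4 to 6 and 9 to 11. Of 7469 genes that reached an FPKM of 1 in 2 or more of the 6 columns, 0 (0%) had an adjusted p below 0.05 (limma with Benjamini-Hochberg adjustment), and the smallest adjusted p was 0.0707. At an unadjusted p below 0.05, 1268 genes (17%) were higher and 137 (1.83%) lower in sections 9 to 11. The groups did not overlap in 1439 genes (19.3%) that were higher and 261 (3.49%) that were lower, and the median difference of all genes tested was 0.52. After quantile normalization this split became 487 higher and 505 lower at an unadjusted p below 0.05, with a median of -0.04. After scaling to a common sum without the ribosomal RNA precursor Rn45s it was 623 and 352, with a median of 0.13.

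Section 6 decided this outcome. Without it, 1103 genes (15.6% of 7049 tested) were called higher in columns 9 to 11 than in columns 4 and 5, and 100 (1.42%) were called lower. A gene listed at 0 throughout 1 group could pass the filter only through the other group, so its sign was fixed. The split and the number depended on the values used: 274 were called higher and 295 lower after quantile normalization, 359 and 171 after common-sum scaling, and 70 and 6 with columns 10 and 11 averaged. Of 74 named genes, 53 were called without section 6. Some of the 74 were chosen by their call in that fit and others by a small p. The counts of named genes called were thus partly fixed by the choice and are no separate support. With columns 10 and 11 averaged, 20 were called, which were Pou5f1, Pim2, Psors1c2, Ifitm3, Bmp4, Phlda2, Krt7, Ly6a, Lgals1, Cd63, Fabp3, Anxa2, S100a11, Ndufb4, Cox5a, Ndufa6, Cks1b, Srp14, Ctsl and Rps27l. Fgfbp1, Id2, Hand1, Igf2, Pcsk6, Podxl and Mvd lost their call under both scalings, and Gata3 lost it under quantile normalization. Leaving out any other single column gave 0 calls. Column 6 was not in that fit, and its value lay nearer to the mean of columns 9 to 11 in 925 of the 1103 higher genes (83.9%) and in 88 of the 100 lower genes (88%). Over all genes tested the shares were 68.2% of those higher and 62.3% of those lower. The correlation of column 6 across genes was 0.69 to 0.731 with columns 4 and 5 and 0.86 to 0.886 with columns 7 to 11. Sections 7 to 11 had correlations of 0.85 to 0.893 among themselves. Columns 4 and 5 had a correlation of 0.735 with each other and of 0.643 to 0.741 with columns 7 to 11. Genes are not independent replicates, and these correlations describe the columns. The group of sections 4 to 6 thus held 1 column that was closer to sections 7 to 11. Columns 4 and 5 were not clearly closer to each other than to the later columns. The 3 columns are kept as 1 group in each value that follows, unless section 6 is named as left out.

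Detection moved with the same boundary. Columns 4 and 5 had 4621 and 4954 genes with an FPKM of at least 1, column 6 had 6222, and columns 9 to 11 had 6077, 6387 and 6467. Rn45s took 26.5% and 35.5% of the summed FPKM in columns 4 and 5, 8.17% in column 6 and 2.36% to 6.63% in columns 9 to 11. Gapdh, an enzyme of glycolysis common to most cells, lay between 8.33 and 8.64 in columns 4 to 11 and did not follow this pattern. Actb, an actin gene, did follow it. It was 8.34 and 8.58 in columns 4 and 5, 9.12 in column 6, and 9.27, 9.45 and 9.68 in columns 9 to 11. With detected genes per column as a covariate no gene was called, with or without section 6. Without section 6 the covariate and the groups cannot be told apart, since both columns of the lower-numbered group had fewer genes than any other of columns 4 to 11. No counts were given, so the depth of the libraries is unknown, and a value of 0 is given as a listing of 0.

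**Figure D1:**
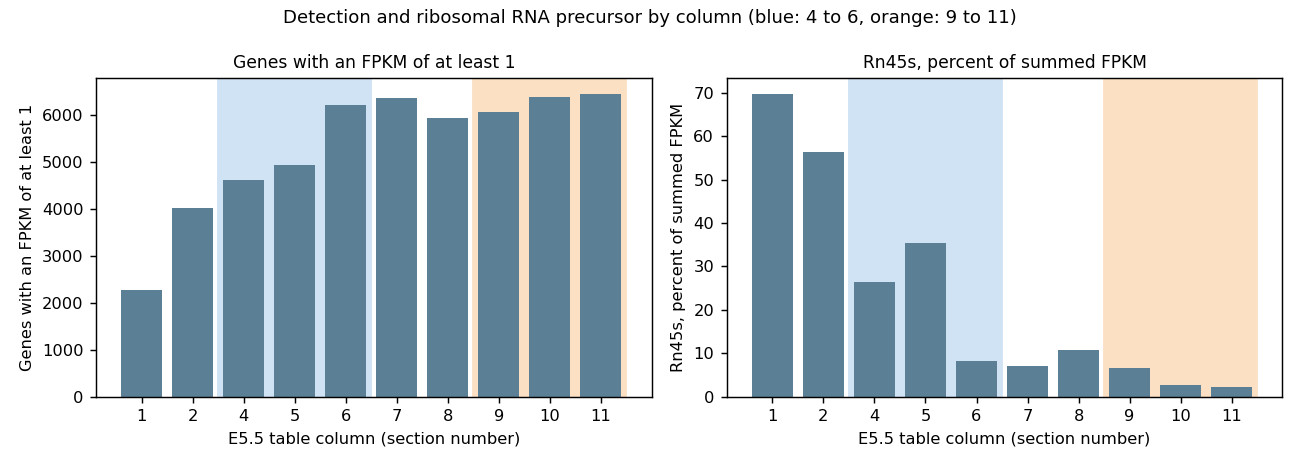
Bars show, for each E5.5 table column, the genes with an FPKM of at least 1 (left) and Rn45s as a percent of the summed FPKM (right), with columns 4 to 6 shaded blue and 9 to 11 orange. Column 6, at 6222 genes and 8.17%, stood nearer to the columns from 7 on than to columns 4 and 5.

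Some pluripotency genes of the epiblast were high in sections 4 and 5 and fell after them. Pou5f1 was 5.68 in column 4 and 4.76 in column 5, and was listed at 0 in column 6 and in each of columns 7 to 11. The mean was 3.48 ± 3.05 in columns 4 to 6 and 0 in columns 9 to 11 (SD, n = 3 columns each). The difference of -3.48 ± 1.13 (SE) did not pass (adjusted p = 0.175, limma with Benjamini-Hochberg adjustment), whereas without section 6 it was -5.22 ± 0.52 (adjusted p = 0.00193). The SD of the lower-numbered group came from column 6, which was at the level of columns 9 to 11.

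Pim2, a serine/threonine kinase, followed the same course at 5.64, 4.61 and 1.21 in columns 4 to 6 and 0.14, 0 and 0.38 in columns 9 to 11. Column 6 was intermediate, nearer to sections 7 (1.40) and 8 (1.18). Without section 6, Pim2 fell by 4.95 ± 0.54 (limma with Benjamini-Hochberg adjustment, adjusted p = 0.00205). Tdgf1 (Cripto), the co-receptor of Nodal, was 3.66, 2.56 and 0.47 in columns 4 to 6 and listed at 0 in columns 7 to 11. Otx2, a homeobox factor of the epiblast and of anterior endoderm, was 3.96, 2.29 and 0.68, then 1.64 in section 7 and 0 from section 8 on. Both groups were free of overlap for Pim2, Tdgf1 and Otx2, and all 3 genes were called lower without section 6.

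Dnmt3b, a de novo DNA methyltransferase, did not drop out of sections 9 to 11 but stepped down. It was 6.10, 5.52 and 3.94 in columns 4 to 6, 4.41 and 3.91 in sections 7 and 8, and 3.80, 3.52 and 2.70 in columns 9 to 11. The difference was -1.85 ± 0.67 (adjusted p = 0.198, limma with Benjamini-Hochberg adjustment) and -2.47 ± 0.51 without section 6 (adjusted p = 0.0156). Of 10 tested genes of formative and primed pluripotency, which the epiblast enters after implantation, 7 were lower and 0 higher at an unadjusted p below 0.05, and the median difference was -1.55, beside 1.83% lower, 17% higher and a median of 0.52 over all genes tested. Otx2, Etv4, Fgf5 and Sall2, which are among these genes, were listed at 0 in each of columns 9 to 11. They could pass the filter only through columns 4 to 6, which fixed their sign. Without section 6, 3 of 9 were called lower (Otx2, Dnmt3b and Etv5). Of 12 tested epiblast genes, 3 were lower and 0 higher at an unadjusted p below 0.05 (median -0.77), and without section 6, 5 were called lower (Pou5f1, Tdgf1, Pim2, Fgf4 and Slc7a3) and 1 higher (the adhesion molecule Epcam), beside 1.42% lower and 15.6% higher over all genes. Pou5f1, Tdgf1 and Fgf4 were listed at 0 in columns 9 to 11, so the filter fixed their sign as well.

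Some genes of these lists kept their level past section 5. Etv4, an ETS factor downstream of FGF signalling, was 1.13, 2.02 and 2.17 in columns 4 to 6, 0.73 and 1.35 in sections 7 and 8, and listed at 0 in columns 9 to 11. Fgf5, a growth factor of the post-implantation epiblast, was 0.24, 2.56 and 1.57, then 2.36 and 1.2 in sections 7 and 8 and 0 in columns 9 to 11. For both genes section 6 was within the range of sections 4 and 5 or close to it, unlike for Pou5f1. The differences were -1.78 ± 0.48 for Etv4 and -1.46 ± 0.58 for Fgf5, and neither passed (adjusted p = 0.158 and 0.216, limma with Benjamini-Hochberg adjustment). Pou3f1, another transcription factor of this state, was 3.72, 3.59 and 4.10 in columns 4 to 6 and 3.29, 3.17 and 1.68 in columns 9 to 11, a difference of -1.09 ± 0.62.

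Nanog, a pluripotency factor, varied little. It was 4.09, 4.34 and 3.98 in columns 4 to 6 and 3.70, 3.95 and 3.81 in columns 9 to 11, a difference of -0.32 ± 0.53 (limma with Benjamini-Hochberg adjustment, adjusted p = 0.78). Over all 10 columns of the E5.5 table Nanog ranged from 3.52 to 4.34. Of 903 tested genes with a mean between 3 and 5, only 1 had a smaller SD over these columns. Nanog was 4.14 even in column 1, where few genes were detected and Pou5f1, Utf1 and Gapdh were listed at 0. Its value thus did not follow detection, and whether it measures Nanog transcripts in every column was not tested. Utf1, a chromatin-associated factor of pluripotent cells, was 4.38, 3.91 and 4.36 in columns 4 to 6 and 4.34, 4.77 and 3.99 in columns 9 to 11. Its difference was 0.16 ± 0.54, and -0.59 and -0.46 after quantile normalization and common-sum scaling. The levels of Nanog and Utf1 in sections 6 to 11, where Pou5f1 was listed at 0, thus resembled those in sections 4 and 5. Dppa5a, L1td1 and Dppa4, also of the epiblast list, had small differences of 0.20 ± 0.41, -0.29 ± 0.56 and -0.41 ± 0.76. Sox2, a partner of Pou5f1 that trophoblast stem cells also express, did not pass the filter on low values, at 2.88, 0.18 and 0.86 in columns 4 to 6 and 0, 0 and 0.09 in columns 9 to 11. Nodal, the ligand of the epiblast, did not pass either and was at most 0.48 in these 6 columns.

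The trophoblast genes were of several kinds, which differed at section 6. Bmp4, a signal of the extraembryonic ectoderm, was listed at 0 in columns 4 and 5, was 4.46 in column 6 and 4.22 and 4.04 in sections 7 and 8, and was 3.62, 3.72 and 3.83 in columns 9 to 11. Its difference was 2.24 ± 1.01 (adjusted p = 0.258, limma with Benjamini-Hochberg adjustment) and 3.72 ± 0.48 without section 6 (adjusted p = 0.00349). The highest value of the compared columns was that of section 6. Elf5, a transcription factor of trophoblast stem cells, was 0, 1.88 and 4.33 in columns 4 to 6 and 4.07, 4.43 and 5.06 in columns 9 to 11. Hand1, which drives trophoblast giant cell fate, was 0.18, 2.20 and 4.36, then 4.19, 4.44 and 5.20. Tfap2c, a transcription factor of the trophoblast lineage, was 0, 2.12 and 3.71, then 4.26, 4.71 and 5.05. Section 6 lay within 1 unit of column 9 for each of these genes, and Bmp4, Elf5, Hand1 and Tfap2c were called higher without section 6.

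Eomes, a T-box factor of trophoblast stem cells and later of the primitive streak, was 0.67, 3.22 and 4.51 in columns 4 to 6 and 4.23, 4.86 and 4.16 in columns 9 to 11. It did not pass even without section 6 (2.47 ± 0.74, adjusted p = 0.0526, limma with Benjamini-Hochberg adjustment). Cdx2 and Esrrb, factors of trophoblast stem cells, were highest in section 6 and lower on either side. Cdx2 was 0, 1.11 and 3.43 in columns 4 to 6, 3.19 and 2.98 in sections 7 and 8, and 2.12, 2.60 and 0 in columns 9 to 11. Esrrb was 0, 0.52 and 3.06, then 2.77 and 1.75, then 1.83, 1.24 and 1.07. Their differences of 0.06 ± 0.89 and 0.19 ± 0.74 hide this course, were negative under both scalings named above, and did not pass.

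**Figure D2:**
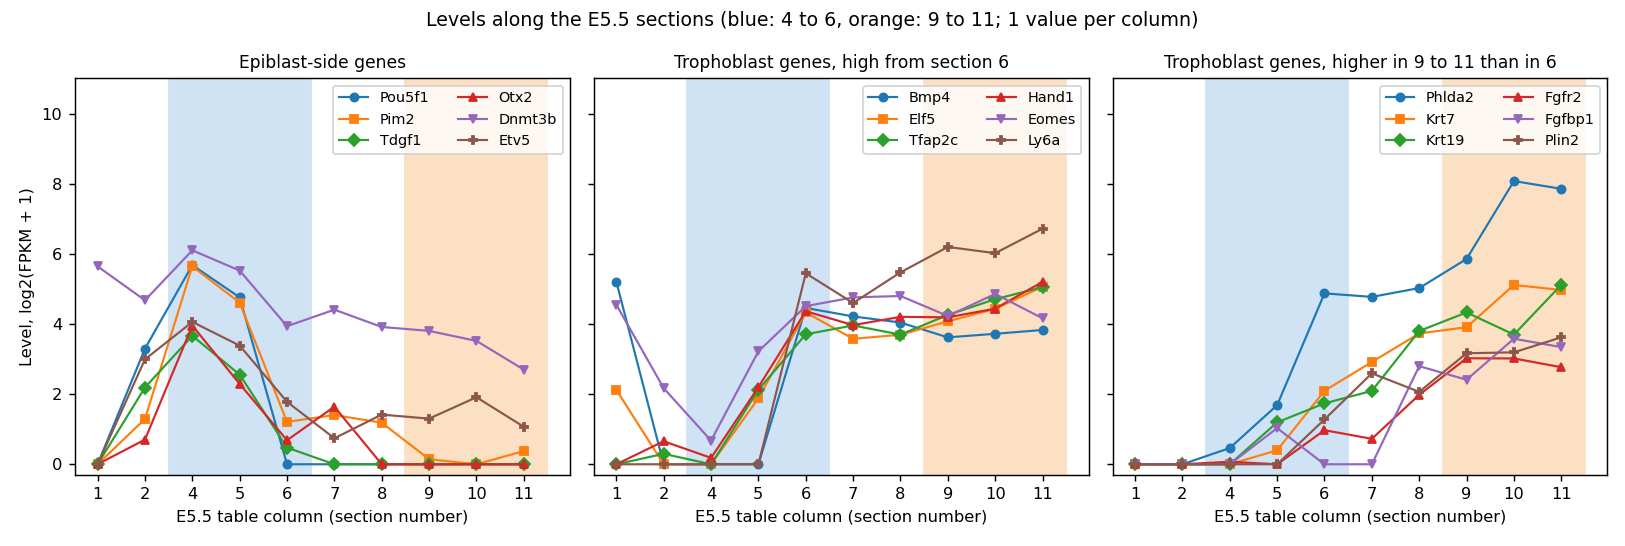
Lines show the level, log2(FPKM + 1), of 6 genes per panel in each E5.5 table column, with columns 4 to 6 shaded blue and 9 to 11 orange. Pou5f1 was listed at 0 from column 6 on, Bmp4 stood at 3.62 to 4.46 from column 6 on, and Phlda2 and Krt7 were higher in columns 9 to 11 than in column 6.

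Several trophoblast genes had higher values in columns 9 to 11 than in section 6. Phlda2 was 0.46, 1.68 and 4.87 in columns 4 to 6, 4.77 and 5.02 in sections 7 and 8, and 5.85, 8.07 and 7.85 in columns 9 to 11. The groups did not overlap, and the difference of 4.92 ± 0.99 missed the threshold (adjusted p = 0.111, limma with Benjamini-Hochberg adjustment), while without section 6 it was 6.19 ± 0.72 (adjusted p = 0.00255). Columns 10 and 11, which may be parts of 1 section, were the highest.

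Krt7 was 0, 0.40 and 2.09 in columns 4 to 6, 2.92 and 3.73 in sections 7 and 8, and 3.91, 5.11 and 4.97 in columns 9 to 11. Its difference was 3.83 ± 0.68 (adjusted p = 0.0935, limma with Benjamini-Hochberg adjustment) and 4.46 ± 0.56 without section 6. Krt19, another keratin of simple epithelia, was 0, 1.19 and 1.74, then 2.09 and 3.80, then 4.33, 3.70 and 5.12. For both keratins section 6 lay below every value of columns 9 to 11, and section 7 was the next lowest. Fgfr2, a receptor of FGF4 in trophoblast, was 0.07, 0 and 0.97 in columns 4 to 6, 0.73 and 1.98 in sections 7 and 8, and 3.02, 3.02 and 2.77 in columns 9 to 11. Fgfbp1, an extracellular FGF-binding protein, was 0, 1.03 and 0, then 0 and 2.80, then 2.41, 3.58 and 3.34. Section 6 was on the side of sections 4 and 5 for Fgfr2 and Fgfbp1, which were called higher without it (2.90 ± 0.48 and 2.59 ± 0.59). Fgf4, the ligand, was 1.49, 1.88 and 0.05 in columns 4 to 6 and listed at 0 in columns 7 to 11.

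Of 19 tested genes of the extraembryonic ectoderm list, 9 were higher and 0 lower at an unadjusted p below 0.05 (median 1.81), and 11 of 17 were called higher without section 6. Over all genes, 17% were higher at that p and 15.6% were called higher without section 6. Of 15 tested genes of the list for ectoplacental cone and trophoblast, 6 were higher and 0 lower (median 1.89), and 7 were called higher without section 6. Ascl2, a transcription factor of the ectoplacental cone, was not among them, at 0, 0 and 1.40 in columns 4 to 6 and 0, 2.85 and 1.51 in columns 9 to 11. Gata3, a trophoblast transcription factor, was among them, at 0, 0.37 and 2.11, then 2.42, 2.52 and 3.26. The marker set of 5 ectoplacental cone genes had a mean of 0.13, 0.85 and 2.58 in columns 4 to 6 and 2.74, 3.58 and 4.52 in columns 9 to 11. The set of 6 extraembryonic ectoderm markers had 0.11, 1.48 and 3.92 and then 3.35, 3.59 and 3.19. Its highest mean was in section 6, whereas that of the ectoplacental cone set was in column 11. The full list of 19 extraembryonic ectoderm genes did not peak in section 6. Its mean was 3.39 there and highest in column 10, at 3.70. The full list of 15 genes for ectoplacental cone and trophoblast was highest in column 11, at 3.82. Plac1, a member of the cone set, was 0 in column 10 and 4.77 in column 11.

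The largest differences included calcium-binding and membrane proteins. S100a8, an S100 calcium-binding protein, was 0, 3.03 and 3.03 in columns 4 to 6, 6.02 and 3.59 in sections 7 and 8, and 8.59, 6.44 and 6.84 in columns 9 to 11. It shared the smallest adjusted p of the comparison with other genes (5.27 ± 0.86, adjusted p = 0.0707, limma with Benjamini-Hochberg adjustment). Section 6 stood at the level of section 5 here, and its omission moved the difference only to 5.77 ± 0.92. Ly6a (Sca-1), a surface protein anchored by a lipid, was listed at 0 in columns 4 and 5, was 5.44 in column 6, and was 6.20, 6.02 and 6.72 in columns 9 to 11. Lgals1, a galectin, was 0.65, 3.41 and 7.38, then 8.16, 8.59 and 8.83. Both had high values in section 6 and were called higher without it, by 6.31 ± 0.48 and 6.49 ± 0.71. Unlike S100a8, Ly6a and Lgals1 were also called higher at E5.75. In the list of S100 and annexin genes 8 of 13 were higher and 0 lower at an unadjusted p below 0.05 (median 2.77), and 8 were called higher without section 6, beside 17% and 15.6% of all genes. S100a8 is not on this list.

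Visceral endoderm genes followed another course. Ttr, a thyroid hormone carrier, was 1.63, 5.42 and 2.45 in columns 4 to 6, 5.63 and 4.61 in sections 7 and 8, and 4.01, 0.41 and 2.73 in columns 9 to 11. Apoa1, an apolipoprotein, was 0.76, 3.83 and 3.55, then 6.35 and 4.55, then 1.82, 0.72 and 0. Amn, a part of the receptor for protein uptake, was 0, 2.57 and 2, then 4.76 and 3.23, then 4.32, 2.47 and 2.31. Each of these 3 genes was highest in section 7 among columns 4 to 11, and the groups overlapped. Of 20 tested genes of the list, 0 were higher and 2 (Apoa1 and Apoc2) lower at an unadjusted p below 0.05 (median -0.01). Over all genes, 17% were higher and 1.83% lower at that p (median 0.52). Without section 6, 0 genes of the list were called, beside 15.6% called higher and 1.42% lower over all genes. Of 3 decidual markers in the table, 0 were above 0 in column 4 and 2 or 3 in the other compared columns, with means of 0 to 1.65 in columns 4 to 6 and 0.23 to 2.28 in columns 9 to 11. The decidua list, with 4 tested genes, had higher means. They were 0.07, 2.31 and 2.63 in columns 4 to 6 and 3.54, 1.83 and 2.26 in columns 9 to 11. Its member Cryab was 0.29, 2.09 and 2.20, then 5.41, 2.88 and 3.40, without overlap. Without section 6, 0 genes of this list were called. The part of decidual tissue in the results was not tested.

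Many genes of the respiratory chain, the ribosome and the proteasome also had lower values in sections 4 and 5. Actb did so too, whereas Gapdh did not. Cox5a, a subunit of cytochrome c oxidase, was 1.33, 1.74 and 5.71 in columns 4 to 6 and 7.29, 7.13 and 7.52 in columns 9 to 11. Ndufb4, a subunit of complex I, was 1.06, 1.52 and 6.31, then 6.62, 7.59 and 7.02. Cks1b, a subunit of cyclin-dependent kinases, was 1.26, 1.88 and 6.90, then 6.87, 6.92 and 7.12. For Ndufb4 and Cks1b, section 6 was within the range of sections 7 to 11. Over all genes, 17% were higher and 1.83% lower at an unadjusted p below 0.05 (median 0.52). Without section 6, 15.6% of all genes were called higher and 1.42% lower. Of 33 respiratory chain genes, 25 were higher and 0 lower at an unadjusted p below 0.05 (median 1.51), and 24 were called higher without section 6. Of 36 cytosolic ribosomal protein genes, 18 were higher and 0 lower (median 0.74), and 19 were called higher and 1 (Rpsa) lower without section 6. Of 28 proteasome genes, 11 were higher and 2 lower (median 1.04), and 10 were called higher and 2 lower without section 6. Both lower genes encode PA28, an activator that docks on the proteasome core, and they are named here after their values were seen. Psme1 was 5.08, 4.77 and 3.24 in columns 4 to 6 and 2.85, 2.02 and 2.97 in columns 9 to 11, a difference of -2.31 ± 0.52 without section 6 (adjusted p = 0.0195, limma with Benjamini-Hochberg adjustment). Psme2 was 6.16, 4.73 and 2.34, then 1.91, 2.39 and 2.93, and fell by 3.03 ± 0.60 without section 6 (adjusted p = 0.0135, same test). At E5.75 both were called lower too, by -2.03 ± 0.46 and -3.52 ± 0.44. The low detection in columns 4 and 5 moved with these lists, and its part in them was not tested.

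**Figure D3:**
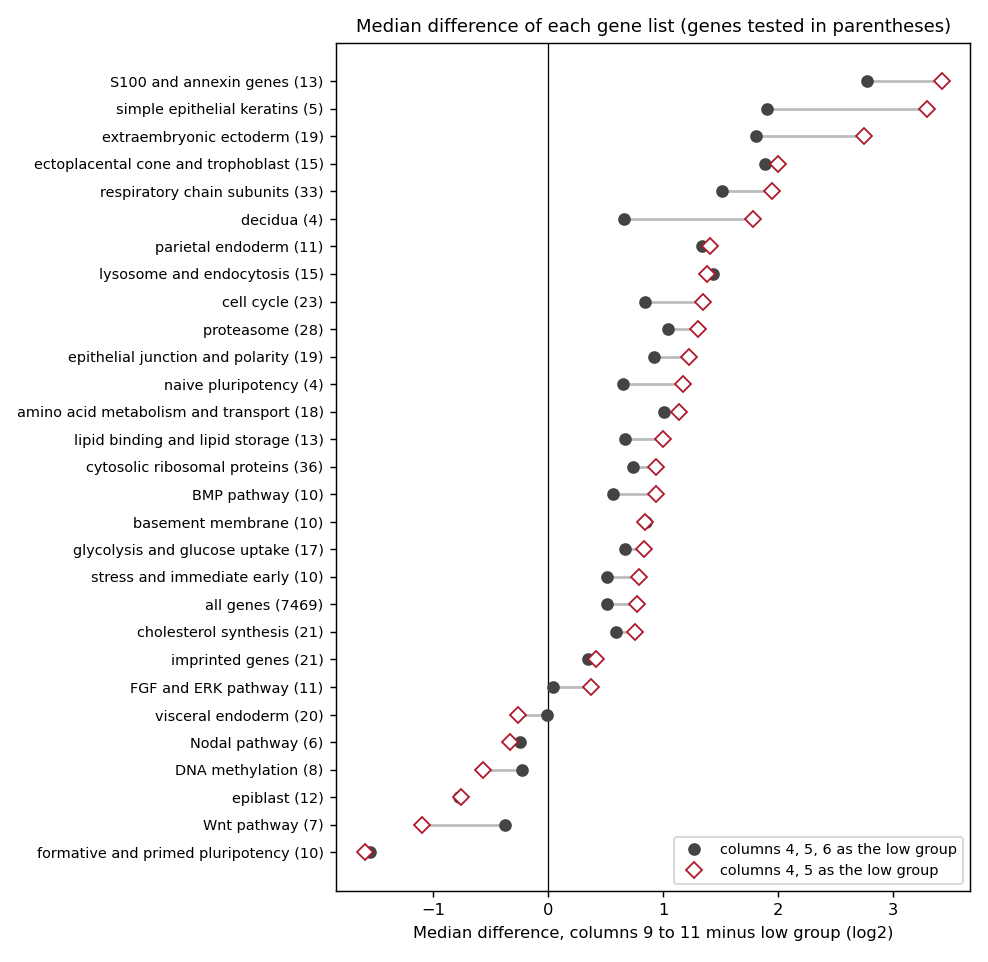
Points show the median difference (log2) of the tested members of each gene list, columns 9 to 11 minus columns 4 to 6 (filled) or minus columns 4 and 5 (open), with the number of genes tested in parentheses. Genes of formative and primed pluripotency lay lowest, at -1.55, and the S100 and annexin genes highest, at 2.77, beside 0.52 for all genes.

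The E5.75 embryo gave a separate choice of genes. Its table was normalized separately, so levels were not compared across the tables. In sections 14 to 19 against 3 to 8 of that embryo (n = 6 sections each), 854 of 10527 genes (8.11%) were called higher and 375 (3.56%) lower (adjusted p below 0.05, limma with Benjamini-Hochberg adjustment). Of the respiratory chain, ribosomal protein and proteasome genes tested there, 4 of 33, 1 of 35 and 0 of 28 were called higher. Epiblast genes and those of formative and primed pluripotency were called lower in 11 of 14 and 15 of 16. The difference of these counts between stages was not tested.

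Called genes that differed by at least 2 log2 units at E5.75 were followed along the E5.5 columns. Of 164 that were lower in sections 14 to 19, 98 passed the filter at E5.5, and of 446 that were higher, 425 did. A gene listed at 0 throughout 1 group could pass only through the other group, so the filter fixed its sign. The shares below describe the genes that passed and are not a separate test. Of 98 tested genes chosen as lower in the higher-numbered sections, 85 (86.7%) were lower at E5.5, against 26% of all genes tested, and 33 were lower without overlap, against 3.49% of all genes. Their mean level was 2.84, 2.54 and 1.38 in columns 4 to 6, 1.40 and 1.24 in sections 7 and 8, and 1.14, 1.22 and 1.16 in columns 9 to 11. The step lay between sections 5 and 6, and all genes together moved the other way. Of 425 tested genes chosen as higher, 405 (95.3%) were higher at E5.5, against 74% of all genes tested, and 157 were higher without overlap, against 19.3% of all genes. Their mean was 0.81, 1.45 and 2.79 in columns 4 to 6, 2.90 and 2.68 in sections 7 and 8, and 2.98, 3.20 and 3.38 in columns 9 to 11. The mean of all genes tested went from 1.60 in column 4 to 2.28 in column 6 and 2.47 in column 11. Without section 6, 37 genes of the first set were called lower and 1 higher, and 199 genes of the second were called higher and 0 lower. Of all genes, 1.42% were called lower and 15.6% higher.

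**Figure D4:**
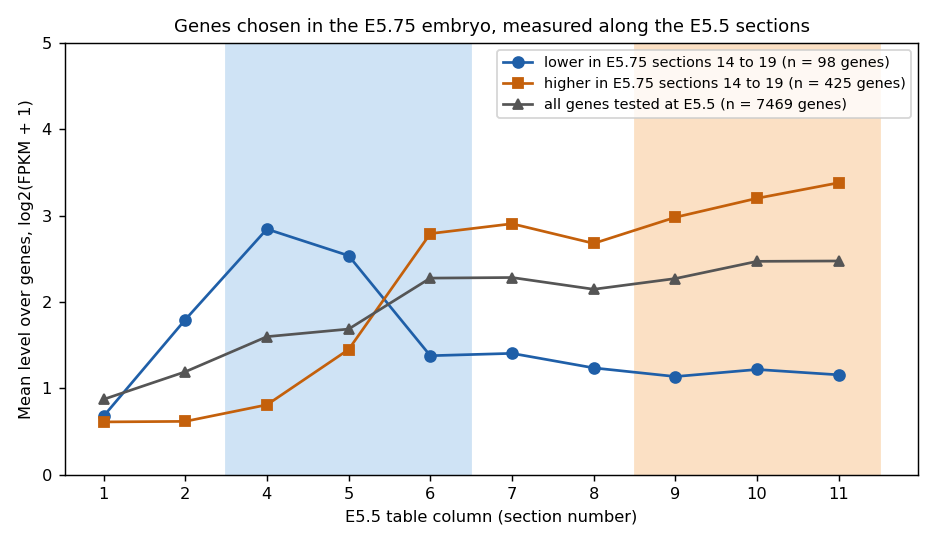
Lines show the mean level, log2(FPKM + 1), in each E5.5 table column, beside all 7469 genes tested. The chosen sets are the 98 genes lower and 425 higher in E5.75 sections 14 to 19 that passed the E5.5 filter. The means of the chosen sets cross between column 5 (2.54 and 1.45) and column 6 (1.38 and 2.79).

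Sections 7 and 8 were set against the group means for the genes whose groups did not overlap and differed by at least 1 unit. The genes were chosen on columns 4 to 6 and 9 to 11 after their values were seen, and the counts are a description. Of 1090 that were higher, both sections were nearer to columns 9 to 11 in 514, section 7 alone in 238, section 8 alone in 164, and neither in 174. Of 126 that were lower, the counts were 54, 20, 33 and 19. Both sections thus stood more often with columns 9 to 11 than with columns 4 to 6, in either direction.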

How the data were processed

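TopHat2 2.0.4 and Cufflinks 2.0.2 were used with build mm10, per the submitters' processing notes. The annotation, the normalization and the joining of parts A and B are not given in the sources used here. The values that the authors deposited were taken to be log2(FPKM + 1), from the table names and because they start at 0. The tables hold no counts, so depth and its precision are unknown. Genes that reached an FPKM of 1 in 2 or more of the 6 columns entered limma 3.58.1 in R 4.3.3 (moderated with a trend, 2-sided, Benjamini-Hochberg threshold 0.05). The script was tested on simulated data. Members, lists and tests were chosen with earlier results of these data known. Named genes were the 12 largest differences each way among called genes without overlap and with a mean FPKM of at least 5, up to 4 members per list with the smallest p, and a fixed set of lineage genes. As no gene was called, the first part was applied to the fit without section 6, after seeing the data, and a selection of these genes is printed. Further genes were picked from the same lists after their values were seen. Alternatives covered pseudocounts, filters, scaling, eBayes settings, a detection covariate, other groupings of columns and leaving out each column. Figures used matplotlib 3.10.9 (Python 3.11.15).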

Additional observations from a re-analysis of the deposited data

Results flagged for a closer look

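Columns 1 and 2 of E5.5 took no part in the comparison, and some values there exceeded every value of columns 4 to 11. Apoa1, an apolipoprotein of the visceral endoderm, was 8.86 in column 1, against at most 6.35 in columns 4 to 11. Lhx1, a transcription factor of the anterior visceral endoderm, was 7.32 in column 1 and 4.32 in column 2, against at most 2.12. Cer1, an inhibitor of Nodal secreted by the anterior visceral endoderm, was 3.22 in column 1 and listed at 0 in columns 2 to 11. Only the fixed set of lineage genes was searched in this way. In column 1 the decidual markers Des and Hoxa10 were 6.74 and 5.08, against at most 2.47 and 0.60 in columns 4 to 11. Prl8a2, another decidual marker, was listed at 0 there, as were Ttr, Hhex and Otx2. The mean in column 1 was 4.29 over 5 visceral endoderm markers and 3.94 over 3 decidual markers. Column 1 had 2288 genes with an FPKM of at least 1 and 69.8% of its summed FPKM in Rn45s, and listed Gapdh at 0.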

How the results depend on the processing

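The count of called genes was 0 and ranged from 0 to 1203 when each column was left out in turn, the highest being without section 6. It was 4 with a pseudocount of 5 (S100a8, Cklf, Crxos1 and 1 unnamed gene model) and 1 with columns 7 and 8 as a separate group (Cklf). Under the other planned settings it was 0. Combinations without section 6 were added after seeing the data: 569 genes were called with quantile normalization (274 higher, 295 lower), 530 with common-sum scaling (359 and 171), 76 with columns 10 and 11 averaged (70 and 6), and 0 with detected genes as a covariate (163 higher and 154 lower at an unadjusted p below 0.05). Of the 1203 genes, 373, 456 and 76 were shared with the first 3 of these. The cause was not tested. With the covariate and section 6 kept, 169 genes were higher and 71 lower at an unadjusted p below 0.05, and 0 were called.

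Over 74 named genes, 1364 values kept their sign with no change of call, and 172 kept it and gained a call. The other 50 values changed sign. With the covariate, these were Pou5f1 (0.075), Psors1c2 (0.069), Igfbp2 (0.30), Dgat2 (-0.0055), Hand1 (-0.091), Elf5 (-0.13), Ascl2 (-0.25), Igf2 (-0.33), Eomes (-0.40), Pcsk6 (-0.43), Ndufa6 (-0.70), Bmp4 (-0.74), Esrrb (-1.61) and Cdx2 (-1.76). With the covariate and without section 6, they were Dnmt3b (0.69), Fzd7 (1.52), Pou3f1 (2.13), Meg3 (2.99), Asns (-1.01), Phlda2 (-1.27), Elf5 (-1.79), Fgfbp1 (-1.82), Tfap2c (-1.95), Hand1 (-2.15), Eomes (-2.54), Igf2 (-2.77), Ascl2 (-3.48) and Id2 (-4.68). In that setting the covariate and the groups cannot be told apart. Common-sum scaling gave -0.18 for Cdx2, -0.027 for Esrrb and -0.46 for Utf1, and quantile normalization gave -0.32, -0.31 and -0.59. A pseudocount of 5 gave -0.039 for Cdx2 and -0.065 for Esrrb, and columns 4 to 7 against 8 to 11 gave -0.0081 and -0.12. Utf1 was -0.57 and -0.76 without section 6 under common-sum scaling and quantile normalization. With each column left out in turn, Cdx2 ranged from -0.70 to 1.02, Esrrb from -0.41 to 1.12, Ttr from -1.60 to 0.34 and Utf1 from -0.044 to 0.34.

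No paired analysis was possible because the groups share no section number. Each group is 3 neighbouring sections of 1 embryo, and the labels of columns 10 and 11 conflict. The manner in which parts A and B were joined is not given in the sources used here. Of values above 0, 37.7% to 41.7% were below 1 in joined columns 4, 5, 6, 8 and 9, 32.3% and 29% in joined columns 2 and 7, and 29.8% and 32.2% in columns 10 and 11. The unknown depth limits every statement on a listing of 0.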

Other observations

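Of 13 tested genes of lipid binding and storage, 4 were higher and 0 lower at an unadjusted p below 0.05 (median 0.67), and 5 were called higher without section 6, beside 17% and 15.6% of all genes. The genes named here were picked after their values were seen. Plin2, which coats lipid droplets, was listed at 0 in columns 4 and 5, was 1.28 in column 6 and 2.59 and 2.07 in sections 7 and 8, and was 3.17, 3.19 and 3.62 in columns 9 to 11. Its difference was 2.90 ± 0.57 (adjusted p = 0.111, limma with Benjamini-Hochberg adjustment) and 3.32 ± 0.49 without section 6 (adjusted p = 0.0057). Dgat2, which makes triglycerides, was also listed at 0 in columns 4 and 5, was 3.45 in column 6, and was 3.37, 3.74 and 3.14 in columns 9 to 11. Section 6 was intermediate for Plin2 and at the level of columns 9 to 11 for Dgat2. Slc7a5, a carrier of large neutral amino acids, was 0, 0.12 and 2.81, then 3.33, 3.05 and 2.61. Asns, asparagine synthetase, was 0, 2.16 and 4.47, then 4.66, 5.30 and 4.92. Of 18 tested genes of amino acid metabolism and transport, 6 were higher and 0 lower at an unadjusted p below 0.05 (median 1.01), beside 17% and 1.83% of all genes (median 0.52).

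Of 21 tested imprinted genes, 2 were higher and 2 lower at an unadjusted p below 0.05 (median 0.34). Over all genes, 17% were higher and 1.83% lower (median 0.52). With 2 genes each way, these counts are too small to set the list apart from all genes. Without section 6, 2 were called higher and 1 lower, beside 15.6% and 1.42% of all genes. Igf2, a paternally expressed growth factor, was 0.59, 3.38 and 5.30 in columns 4 to 6 and 5.08, 5.39 and 5.57 in columns 9 to 11. The entry that joins Meg3, a maternally expressed noncoding RNA, with its microRNAs was 6.45, 6.05 and 5.44, then 4.95, 4.05 and 2.66. The groups overlapped for Igf2 and did not for Meg3, and without section 6 Igf2 was called higher (3.36 ± 0.76) and Meg3 lower (-2.37 ± 0.65). Dnmt1, the maintenance DNA methyltransferase, was 3.22, 3.33 and 2.15, then 1.87, 1.49 and 1.54, a difference of -1.27 ± 0.57 that did not pass with section 6 or without it (adjusted p = 0.26 and 0.0503, limma with Benjamini-Hochberg adjustment). The globin entry Hba-a1Hba-a2 was 3.39, 5.12 and 2.74 in columns 4 to 6 and 1, 0 and 1.09 in columns 9 to 11. It was called lower without section 6 (-3.56 ± 0.66), and was 8.60 in column 1.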
